A study of Mus musculus with 14 samples.

Results

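The colony-stimulating factor genes and the IL-3 family were examined as 7 of the 53278 genes counted in mouse lung group 2 innate lymphoid cells (ILC2s), tissue lymphocytes that make type 2 cytokines. The genes were matched by symbol in the deposited counts and transcript levels, and all 7 were found and passed the filter on low counts in both experiments. They comprise 3 ligand genes, Csf1, Csf2 and Il3, and 4 receptor genes, Csf2ra, Csf2rb, Csf2rb2 and Il3ra. Cells had been sorted from whole lungs of individual female mice as live, lineage-, CD90.2+ and CD3-, and about 15000 cells were put in culture for each of the 14 libraries. In the stimulation experiment, 8 wild-type B6 mice, divided into groups before sorting by the series' design text, gave 4 libraries cultured without IL-33 (unstimulated, also described by the submitters as ex vivo) and 4 libraries kept for 24 h in 20 ng/mL of IL-33. The study's methods give 24 h for the culture without IL-33 too. If those cells were instead taken ex vivo, effects of IL-33 and of 24 h in culture cannot be told apart. The Blimp-1 experiment used 3 ControlIL7RaCre and 3 age-matched Blimp-1IL7RaCre mice, whose cells were all activated over 72 h by 20 ng/mL of IL-33 plus the same dose of IL-25, and the study's methods add IL-2. Deletion was not restricted to ILC2s. The study describes Cre expression from the IL7Ra gene as reaching NK, B and T cells and the other innate lymphoid cells too. The labels do not give the mice's exact ages, nor whether the controls carry the floxed allele.

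Csf2 encodes GM-CSF and Il3 encodes IL-3, cytokines of activated lymphocytes that drive myeloid cells, while Csf1 encodes M-CSF, the growth factor of macrophages, which signals through a separate receptor encoded by Csf1r. GM-CSF binds an alpha chain encoded by Csf2ra and IL-3 an alpha chain encoded by Il3ra. Each alpha chain is paired with the common beta chain encoded by Csf2rb, which also serves the IL-5 receptor, and signals through JAK2 and STAT5. Mice have an additional beta chain, encoded by Csf2rb2, that pairs with the IL-3 alpha chain only.

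Sequencing depth was 21939818 to 32791051 counts in the unstimulated libraries, 10470125 to 32849428 in the IL-33 libraries and 13570188 to 76448945 in the Blimp-1 experiment. The third IL-33 library, 3_stim, and the second Control library, WT_2, were the shallowest and stood apart from their groups. In WT_2, 7 genes held 76.8% of all counts, against 4.16% to 5.57% in the other 5 libraries of that experiment, and its 12 epithelial and stromal marker genes summed to 4053 CPM (counts per 1000000 reads after scaling), against 222 to 749 CPM. In 3_stim, the gene Csf1r stood at 27.2 CPM, against 0.486 to 2.17 CPM in the other IL-33 libraries. Each of the 7 genes is therefore compared with and without that library. All 15 ILC2 marker genes were detected in every group, and their levels moved: after IL-33, 11 were called lower and 3 higher, with and without 3_stim, the largest changes being Il13 (6.68), Il5 (4.98), Areg (3.36) and Il17rb (-3.07) on the log2 scale. For Blimp-1 deficiency 0 of 15 were called with all 6 libraries by edgeR, where 7 had an unadjusted p below 0.05, 6 were called by DESeq2 and 7 by voom, and without WT_2, 4 were higher and 4 lower. Their part in the results for the 7 genes was not tested. Prdm1, which encodes Blimp-1, stood at 75.2, 92.8 and 74.0 CPM in the Control libraries and at 14.6, 11.5 and 11.4 CPM in the Blimp-1-deficient libraries (log2 fold change -2.68, SE 0.15, edgeR adjusted p = 0.00441). The counts do not separate the deleted exons. In these bulk libraries, fewer cells of a type and less RNA per cell cannot be told apart.

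Across the 7 genes, Csf2, Il3 and Csf2rb2 were higher and Csf1 and Il3ra lower after 24 h with IL-33 than in unstimulated libraries. On TMM-scaled counts, Blimp-1 deficiency lowered both beta chain genes in the comparison of all 6 libraries, and without WT_2 it also raised Csf1, Csf2, Il3 and Il3ra. On log2 TPM the beta chain changes turned positive unless WT_2 was left out. They stayed below the median change of all genes, which was 1.69 on log2(TPM + 0.1). Csf2ra passed the test in neither comparison. In the plot of CPM per library, the largest separations between groups are those of Csf2 and Il3 after IL-33.

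**Figure D1:**
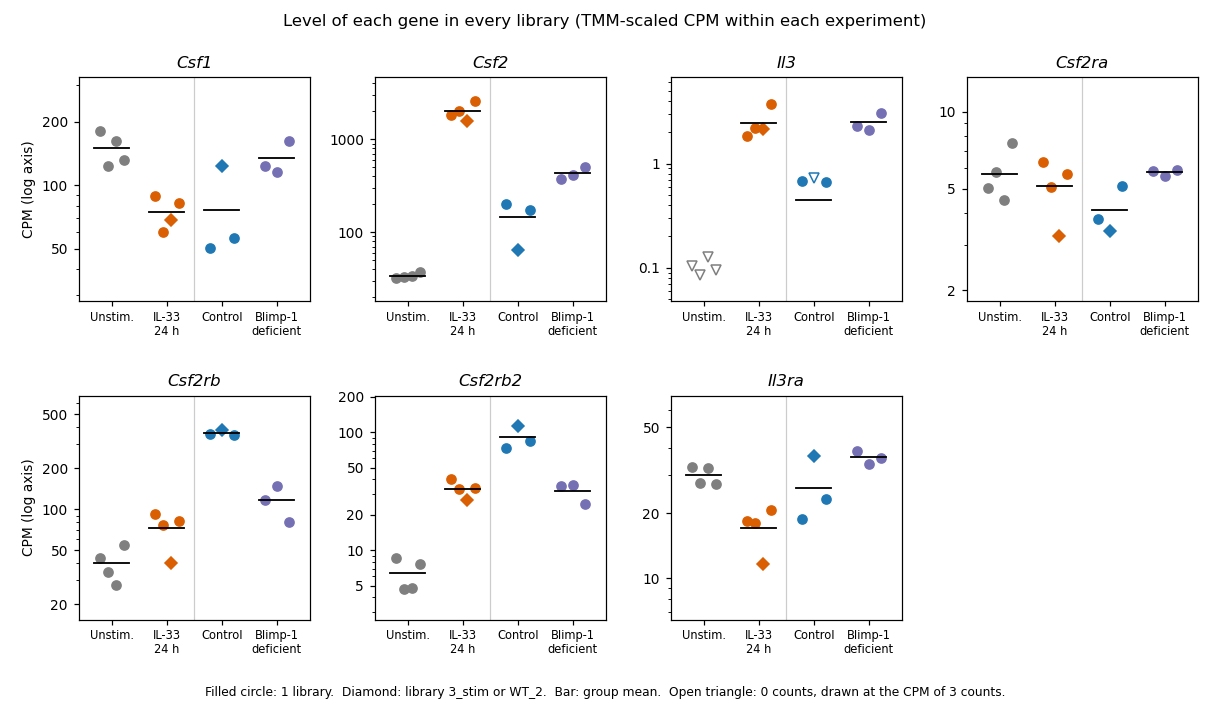
CPM of the 7 genes in each of the 14 libraries on log axes, with 1 panel per gene, circles for libraries, diamonds for 3_stim and WT_2, and a bar for the group mean. Open triangles mark Il3 at 0 counts, drawn at the CPM that 3 counts would give. Unstimulated Csf2 lies between 32.4 and 37.4 CPM and IL-33-stimulated Csf2 between 1582 and 2575 CPM. CPM were scaled within each experiment, to the left and right of the grey line.

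Csf2 (ENSMUSG00000018916.5) lies on the minus strand of GRCm38 at chr11:54247271-54249667, and Il3 (ENSMUSG00000018914.5) on the same strand at chr11:54265303-54267277, with their start sites 17.61 kb apart. The RefSeq promoter windows of these genes and of Csf1 are shown because Csf2 and Il3 rose together after IL-33 and, without WT_2, with Blimp-1 deficiency, while Csf1 fell after IL-33. Each window runs 5′ to 3′ on the gene's strand over 300 bases of GRCm38.p6, 250 before the RefSeq start and 50 from it. The windows are chr11:54249850-54250149 for Csf2, chr11:54267230-54267529 for Il3 and chr3:107760420-107760719 for Csf1. The RefSeq start of Csf2 is 232 bases upstream of the GENCODE start, so its window lies further from the gene than those of Il3 and Csf1, whose starts differ by 2 and 0 bases. Capitals mark the matches to 7 searched motifs on either strand.
Csf2: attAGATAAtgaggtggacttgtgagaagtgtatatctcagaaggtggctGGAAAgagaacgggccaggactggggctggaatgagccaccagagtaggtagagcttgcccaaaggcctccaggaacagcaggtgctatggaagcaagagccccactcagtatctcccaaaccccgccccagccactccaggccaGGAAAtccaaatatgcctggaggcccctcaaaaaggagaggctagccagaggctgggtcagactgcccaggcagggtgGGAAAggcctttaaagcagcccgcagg
Il3: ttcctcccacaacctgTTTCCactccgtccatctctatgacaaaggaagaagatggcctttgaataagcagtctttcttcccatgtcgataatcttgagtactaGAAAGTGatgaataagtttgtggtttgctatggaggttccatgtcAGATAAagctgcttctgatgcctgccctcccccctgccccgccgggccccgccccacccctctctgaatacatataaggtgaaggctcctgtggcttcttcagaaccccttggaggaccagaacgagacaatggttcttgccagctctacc
Csf1: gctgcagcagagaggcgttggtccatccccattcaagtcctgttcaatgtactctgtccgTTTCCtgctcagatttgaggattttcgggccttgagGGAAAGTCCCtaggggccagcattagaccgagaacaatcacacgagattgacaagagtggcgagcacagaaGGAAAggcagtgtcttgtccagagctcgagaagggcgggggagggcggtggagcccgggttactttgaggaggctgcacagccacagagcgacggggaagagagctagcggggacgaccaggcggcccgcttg

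The motifs searched for immune activation factors were GGAAA (the core bound by NFAT), TGANTCA (AP-1), the 10-letter consensus of NF-kB sites and TTCNNNGAA (STAT). Also searched were GAAAGTG, the core of Blimp-1 sites, AGATAA, bound by the factor family of Gata3, and the core promoter element TATAAA. With the RefSeq start counted as base 0, the Il3 window held GAAAGTG at bases -146 to -140, letters found in 4.81% of the 32851 mouse promoter windows of this length. It was the only match to that motif among the 6 members with a window. Csf1 held the NF-kB consensus on the opposite strand at -154 to -145, where the window reads GGAAAGTCCC, in 1.63% of promoters, and this match overlaps 1 of its 3 GGAAA matches. Csf2 held 3 GGAAA matches and Il3 held 1, but these letters occur in 61.3% of promoters. AGATAA was found once in Csf2 and once in Il3, and in 11.2% of promoters. No window of the 6 held TGANTCA or TATAAA, which says only that these letters are not in these stretches. A match is a description of sequence, not of binding.

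Csf2 was the most abundant of the 7 transcripts per length in every group, with a mean of 147 TPM, a count scaled by gene length and summing to 1000000 per library, in unstimulated libraries. Its CPM was 32.4, 32.7, 33.5 and 37.4 in unstimulated libraries and 1835, 2021, 1582 and 2575 in IL-33 libraries 1 to 4. No IL-33 library came near the unstimulated range, and 3_stim was the lowest of the stimulated libraries. The difference was 58.9-fold (log2 fold change 5.88, SE 0.18, edgeR adjusted p = 1.97e-06), and it was 5.98 on the log2 scale without 3_stim. Csf2 supplied 54.2% to 65.3% of the summed ligand TPM in unstimulated libraries and 99.1% to 99.4% after IL-33.

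In the Blimp-1 experiment Csf2 stood at 203, 63.8 and 174 CPM in Control libraries 1 to 3 and at 377, 415 and 507 CPM in Blimp-1-deficient libraries. Every Blimp-1-deficient library was above every Control library, and WT_2 was the lowest of the 6. The log2 fold change of 1.55 (SE 0.41) did not pass the test with all libraries (edgeR adjusted p = 0.196). Without WT_2 it was 1.21 (SE 0.14, adjusted p = 0.00286), a 2.31-fold rise.

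The gene Gm12223 lies on the opposite strand and overlaps 96 exon bases of Csf2, or 12% of them. The library kit does not mark strand, so reads in the overlap cannot be assigned to either gene. Gm12223 stood at 0.174 to 0.892 CPM in unstimulated libraries and 3.45 to 4.24 CPM in IL-33 libraries, and per length it stayed at 1.08 to 5.93 TPM and 17.1 to 22.8 TPM, beside 133 to 166 TPM and 5174 to 8589 TPM for Csf2. Its log2 fold change was 2.82 (SE 0.49, adjusted p = 0.00338) after IL-33 and 1.79 (SE 0.47, adjusted p = 0.196) for Blimp-1 deficiency with all 6 libraries, which did not pass. Without WT_2 it was 1.53 (SE 0.25, adjusted p = 0.0103).

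**Figure D2:**
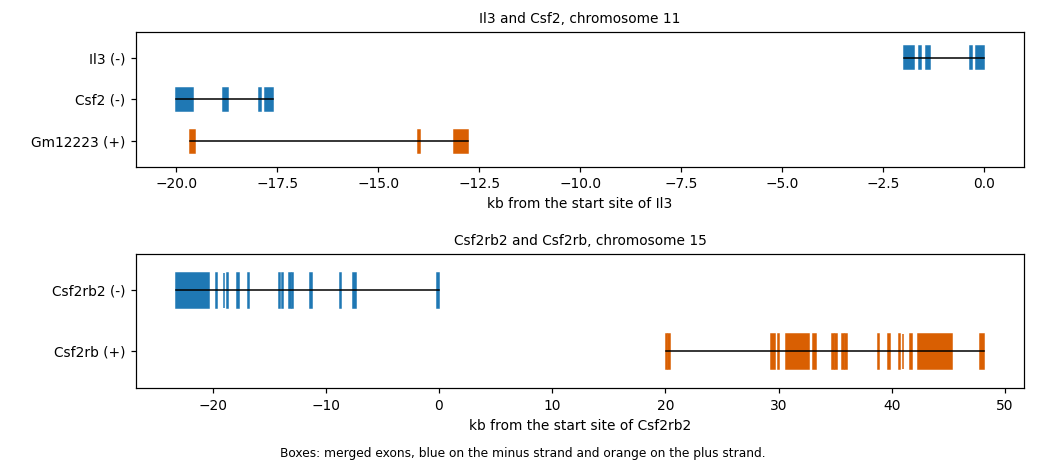
Exon maps in kb from the start site of the gene in the top row of each panel, with boxes for merged exons and colour for strand. Il3 and Csf2 lie on the same strand with start sites 17.61 kb apart, and Gm12223 crosses the last exon of Csf2 on the opposite strand. Csf2rb2 and Csf2rb point away from each other with start sites 20.031 kb apart.

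Il3 was counted at 0 in all 4 unstimulated libraries, where 3 counts would be 0.0859 to 0.127 CPM. After IL-33 it had 56, 67, 22 and 105 counts, which are 1.84, 2.17, 2.17 and 3.72 CPM. IL-3 transcripts were thus detected in every stimulated library, at a mean of 10.8 TPM beside 6893 TPM for Csf2. The mean of 2.47 CPM was at least 19.4-fold above the highest 3-count limit of an unstimulated library, and at least 20.2-fold without 3_stim (edgeR adjusted p = 0.000459 and 4.61e-05). The limit of 3 counts covers counting error only.

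Among the cells activated for 72 h, Il3 had 57, 0 and 63 counts in Control libraries (0.687, 0 and 0.665 CPM) and 190, 162 and 297 counts in Blimp-1-deficient libraries (2.30, 2.09 and 3.07 CPM). The Blimp-1-deficient libraries were all above the Controls. The 0 in WT_2 allows up to 0.731 CPM, which is above the values of the other Control libraries, so WT_2 cannot be told from them. With all 6 libraries the log2 fold change was 2.15 (SE 0.59, adjusted p = 0.212) and did not pass. Without WT_2 it was 1.89 (SE 0.24, adjusted p = 0.0043), a 3.70-fold rise.

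Csf1 (ENSMUSG00000014599.10) lies on the minus strand at chr3:107741048-107760469. Its CPM was 180.5, 124, 163 and 131 in unstimulated libraries and 89.4, 59.7, 68.2 and 82.7 after IL-33. The groups did not overlap, and the log2 fold change was -0.99 (SE 0.17, adjusted p = 0.00272), or -0.95 without 3_stim. M-CSF thus went the opposite way from GM-CSF and IL-3: the TPM ratio of Csf1 to Csf2 went from a mean of 0.659 to 0.00571.

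In Control libraries Csf1 was 50.5, 123 and 56.1 CPM, and in Blimp-1-deficient libraries 124, 116 and 162 CPM. WT_2 stood within the Blimp-1-deficient range while the other Controls were below it, and the log2 fold change over all 6 libraries was 0.83 (SE 0.36, adjusted p = 0.435). Without WT_2 it was 1.34 (SE 0.14, adjusted p = 0.00246).

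The summed markers of another cell class moved with Csf1, though not every gene of the list did. The 12 epithelial and stromal marker genes summed to 502 to 821 CPM in unstimulated libraries and 284 to 506 CPM after IL-33, and 4 of the 8 that could be tested were lower and 1 higher, or 6 lower and 1 higher without 3_stim. Their sum was 222 CPM in WT_1, 4053 CPM in WT_2, 343 CPM in WT_3 and 509 to 749 CPM in the Blimp-1-deficient libraries. With all 6 libraries 0 of 10 tested were called by edgeR, where 3 had an unadjusted p below 0.05. DESeq2 called 3 and voom 3, and without WT_2, 4 of 10 tested were higher. Col1a1, a fibrillar collagen gene, had the highest mean of the list in 3 groups. For Blimp-1 deficiency its log2 fold change turned from -2.02 with all 6 libraries to 1.17 without WT_2, and neither passed (adjusted p = 0.636 and 0.103). Among the epithelial genes, Sftpc and Scgb1a1 were at or near 0, apart from Scgb1a1 at 18.7 CPM in unstimulated library 2, while Epcam stood at 52.4 to 69.5 CPM in unstimulated and 2.27 to 3.55 CPM in IL-33 libraries (log2 fold change -4.50, adjusted p = 6.59e-06). The keratin gene Krt8 was higher in Blimp-1-deficient libraries without WT_2 (3.12, adjusted p = 0.0487). Pecam1 was the gene that rose after IL-33 (0.99, edgeR adjusted p = 0.00311), with the highest mean of the list there (124 CPM). It also rose with Blimp-1 deficiency without WT_2 (1.15, adjusted p = 0.000675). Within each experiment, setting WT_2 and 3_stim aside, the group with more Csf1 was also the group with the larger sum of these transcripts, while Pecam1 alone went against Csf1 after IL-33. The part of these transcripts in the Csf1 result was not tested.

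**Figure D3:**
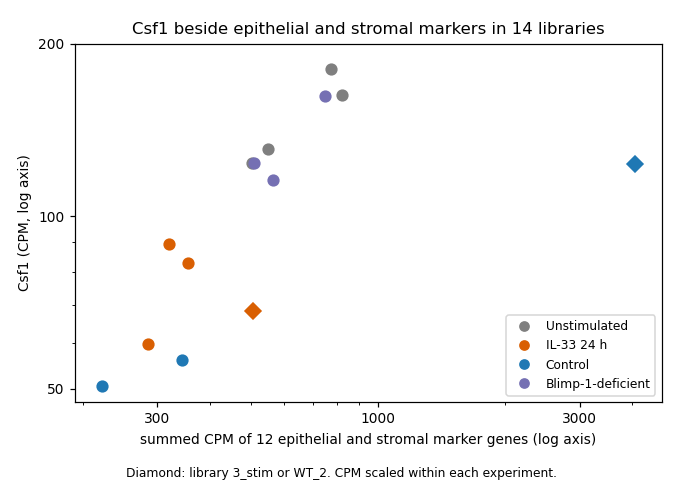
Csf1 in CPM against the summed CPM of 12 epithelial and stromal marker genes, both on log axes, with 1 point per library coloured by group and diamonds for 3_stim and WT_2. The unstimulated libraries (502 to 821 CPM of markers) lie above and to the right of the IL-33 libraries other than 3_stim, and WT_2 stands alone at 4053 CPM. CPM were scaled within each experiment.

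Of the receptor genes, Csf2rb (ENSMUSG00000071713.6) lies on the plus strand at chr15:78325752-78353847 and Csf2rb2 (ENSMUSG00000071714.7) on the minus strand at chr15:78282507-78305721. The start sites of these neighbours are 20.031 kb apart. Their coding sequences are near copies: of 2631 aligned coding bases in GENCODE vM21 transcripts, 95.2% were identical. The longest identical run is shown because reads of 75 bases from within it fit both genes. It spans 242 bases, at chr15:78348577-78348818 in exon 15 of Csf2rb and at chr15:78284630-78284871 in exon 14 of Csf2rb2, and is printed 5′ to 3′ on the coding strand.
Csf2rb and Csf2rb2: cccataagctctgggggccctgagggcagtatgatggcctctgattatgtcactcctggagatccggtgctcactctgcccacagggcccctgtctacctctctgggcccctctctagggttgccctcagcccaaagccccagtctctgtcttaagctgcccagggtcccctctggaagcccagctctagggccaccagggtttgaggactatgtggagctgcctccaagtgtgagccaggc

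Of all 75-base stretches of its transcripts, 7.15% in Csf2rb and 10.6% in Csf2rb2 also occur in the other gene. How reads that fit both genes were counted is not given in the sources used here, so a part of each gene's counts is uncertain.

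Csf2rb stood at 43.8, 34.4, 27.8 and 54.9 CPM in unstimulated libraries and at 92.6, 76.8, 40.0 and 82.0 CPM after IL-33. Library 3_stim lay inside the unstimulated range and the other IL-33 libraries lay above it. Over all 8 libraries the log2 fold change was 0.86 (SE 0.29, edgeR adjusted p = 0.0554) and missed the threshold of 0.05. Without 3_stim it was 1.06 (SE 0.19, adjusted p = 0.000872), a 2.08-fold rise of the common beta chain transcript. In 3_stim the macrophage and monocyte markers summed to 140 CPM, against 41.8 to 109 CPM in the other IL-33 libraries, and their part in this value was not tested.

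Csf2rb2, the beta chain of the IL-3 receptor alone, stood at 8.54, 4.67, 4.80 and 7.72 CPM in unstimulated libraries. It reached 39.9, 33.0, 26.5 and 33.6 CPM after IL-33. All IL-33 libraries were above all unstimulated libraries, and 3_stim was again the lowest of its group. The rise was 5.17-fold (log2 fold change 2.37, SE 0.25, adjusted p = 0.000272) and 5.51-fold without 3_stim.

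Loss of Blimp-1 went with less of both beta chains. In Control libraries Csf2rb was 357, 381 and 354 CPM, and in Blimp-1-deficient libraries 118, 149 and 81.2 CPM. On this TMM scale WT_2 lay close to the other Controls and the groups were far apart, but per length WT_2 held 8.68 TPM, below every other library of the experiment. The log2 fold change was -1.65 (SE 0.22, adjusted p = 0.0404) with all 6 libraries and -1.61 (SE 0.22, adjusted p = 0.00502) without WT_2.

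Csf2rb2 was 74.1, 114 and 84.2 CPM in Control libraries and 35.3, 36.0 and 24.9 CPM in Blimp-1-deficient libraries. The groups did not overlap on this scale, with WT_2 the highest, while in TPM WT_2 was the lowest of the 6, at 2.67 TPM. Its log2 fold change was -1.49 (SE 0.21, adjusted p = 0.0463), and -1.29 (SE 0.16, adjusted p = 0.00368) without WT_2. With all 6 libraries, leaving out any library other than WT_2 took both beta chain genes above the threshold, to adjusted p values of up to 0.26. Scaling by library size alone gave -1.14 for Csf2rb and -0.88 for Csf2rb2 (adjusted p = 0.868 for both). On log2 TPM over all 6 libraries both changes turned positive, but lay below the median change of all genes, 1.69 on log2(TPM + 0.1).

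Il3ra (ENSMUSG00000068758.8), the IL-3 alpha chain, lies on the plus strand at chr14:14346275-14356011, and the antisense gene Gm48860 overlaps 1.55% of its exon bases. It stood at 32.7, 27.6, 32.3 and 27.2 CPM in unstimulated libraries and at 18.4, 18.0, 11.6 and 20.6 CPM after IL-33. The groups were apart, with 3_stim the lowest library. The log2 fold change was -0.80 (SE 0.18, adjusted p = 0.0107), or -0.65 (SE 0.09, adjusted p = 0.000215) without 3_stim. T cell markers fell over the same comparison, from a summed 191 to 216 CPM to 50.3 to 74.5 CPM, with 5 of 10 lower, or 6 without 3_stim. Much of the sum was Trbc2, with means of 117 CPM in unstimulated and 32.2 CPM in IL-33 libraries, while Cd3e stood at 6.83 and 3.76 CPM. The part of these markers in the Il3ra result was not tested.

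In Control libraries Il3ra was 18.8, 36.8 and 23.2 CPM, and in Blimp-1-deficient libraries 38.8, 33.8 and 36.0 CPM. WT_2 lay within the Blimp-1-deficient range and the other Controls below it. The log2 fold change was 0.50 (SE 0.24, adjusted p = 0.499) over all 6 libraries and 0.79 (SE 0.10, adjusted p = 0.00478) without WT_2. Of 10 T cell markers, 0 were called with all 6 libraries by edgeR, where 1 had an unadjusted p below 0.05. DESeq2 called 0 and voom 1. Without WT_2, 1 was higher, Trbc1 (0.72, adjusted p = 0.0399), and the part of these markers was not tested.

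Csf2ra (ENSMUSG00000059326.7), the GM-CSF alpha chain, lies on the minus strand at chr19:61223957-61228429. Per length it was the lowest receptor transcript in every group except the unstimulated, where its mean of 10.7 TPM was above the 4.81 TPM of Csf2rb2. It stood at 5.03, 5.78, 4.50 and 7.56 CPM in unstimulated libraries and 6.34, 5.09, 3.25 and 5.70 CPM after IL-33. These ranges overlapped, and the log2 fold change of -0.16 (SE 0.27) had an adjusted p of 0.659. In Control libraries it was 3.80, 3.41 and 5.13 CPM, and in Blimp-1-deficient libraries 5.86, 5.58 and 5.91 CPM. The latter were higher in every library, yet the log2 fold change of 0.47 (SE 0.20, adjusted p = 0.437) did not pass, nor did 0.38 (SE 0.15, adjusted p = 0.138) without WT_2.

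**Figure D4:**
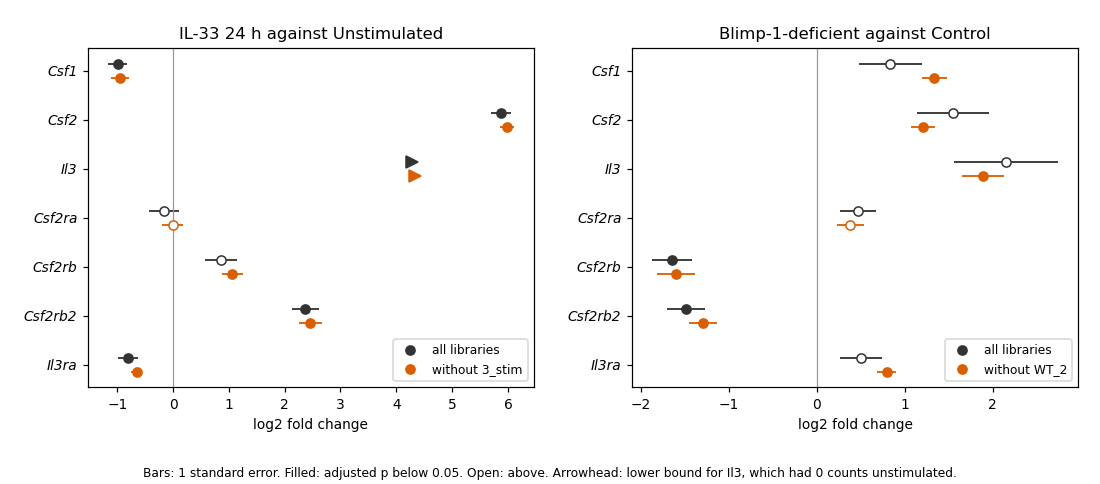
Log2 fold change of each gene on TMM-scaled counts with 1 standard error, after IL-33 (left) and for Blimp-1 deficiency (right), with all libraries in black and without 3_stim or WT_2 in orange. Filled points have an adjusted p below 0.05, and arrowheads give the lower bound for Il3. Csf2rb and Csf2rb2 lie right of 0 on the left and left of 0 on the right, Csf2rb with an open point over all libraries after IL-33.

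Of the 7 genes, 3 were called higher after IL-33, where 16.2% of 15466 genes tested were called higher, and 2 were called lower, where 16.1% were. Without 3_stim, 4 were higher and 2 lower, against 27.5% and 29.7% of 15733 genes. For Blimp-1 deficiency, 0 were higher and 2 lower with all 6 libraries, against 0.45% and 0.306% of 17335 genes. The 0 is by edgeR, where 2 genes had an unadjusted p below 0.05 and a positive change, and 2 were called higher by DESeq2 and 4 by voom. Without WT_2, 4 were higher and 2 lower, against 8.25% and 5.72% of 17968 genes. By non-overlap of the groups, 3 genes were higher and 2 lower after IL-33 (17% and 20.9% of genes tested), and 4 and 2 without 3_stim (28.6% and 30%). For Blimp-1 deficiency, 3 were higher and 2 lower by non-overlap (11.8% and 10.8%), and 5 and 2 without WT_2 (25.3% and 24.8%). Under an unadjusted p below 0.01 and a log2 change beyond 1, 3 genes were higher and 0 lower after IL-33 (5% and 5.51% of genes tested), and 4 and 0 without 3_stim (6.13% and 9.18%). Under that rule 2 were higher and 2 lower for Blimp-1 deficiency (1.44% and 0.617%), and 3 and 2 without WT_2 (4.25% and 0.846%).

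Ratios of TPM within a library compare genes without the scaling between libraries. Unstimulated cells held Csf2rb2 at 0.168 of the Csf2rb level on average, and IL-33 cells at 0.490. In every IL-33 library the ratio was above that of every unstimulated library. The share of Csf2rb2 in the summed beta chain TPM was 12.3% to 16.8% in unstimulated libraries. It was 40.6% in 3_stim and 29.7% to 30.8% in the other IL-33 libraries. The difference of 1.55 on the log2 scale had an exact permutation p of 0.0286 (two-sided, 4 against 4), the smallest that this design allows, and 0.0762 after adjustment over the 8 ratio tests. Il3ra against Csf2rb went the other way, from a mean ratio of 1.23 to 0.389, also without overlap (exact p = 0.0286, adjusted 0.0762). The ratio of the alpha chains, Il3ra to Csf2ra, went from 3.29 to 2.10 with overlapping ranges (exact p = 0.0571, adjusted 0.114). Without 3_stim the IL-33 means of these ratios were 0.439, 0.366 and 2.07 in the order given. Of these, only the alpha chain ratio overlapped the unstimulated range.

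For Blimp-1 deficiency, the ratio of Il3ra to Csf2rb stood at 0.0851 to 0.164 in Control libraries and at 0.364 to 0.712 in Blimp-1-deficient libraries. The difference of 2.18 on the log2 scale had an exact permutation p of 0.1, the smallest that 3 against 3 can give, and 0.16 after adjustment. Here too no ratio could pass the threshold. Without WT_2 the difference was 2.45. Csf2rb2 against Csf2rb differed by 0.19 on the log2 scale with overlapping ranges (exact p = 0.4, adjusted 0.533). Without WT_2 the difference was 0.34 and the ranges did not overlap. Il3ra against Csf2ra differed by 0.16 with overlapping ranges (exact p = 0.5, adjusted 0.571), and by 0.40 without overlap when WT_2 was left out. Csf1 against Csf2 differed by -0.81 with all libraries and by 0.12 without WT_2, where Csf1 and Csf2 rose by like amounts.

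**Figure D5:**
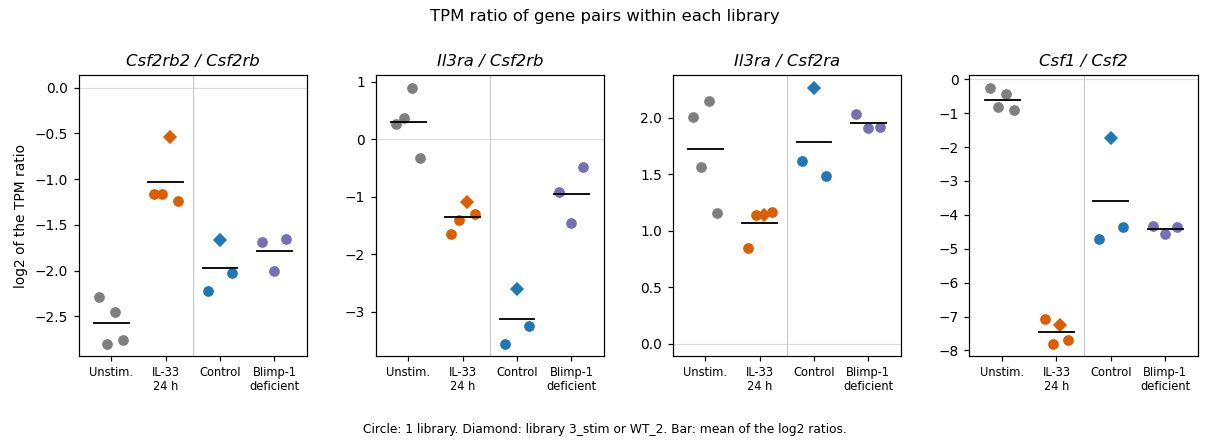
Log2 of the TPM ratio of gene pairs in each library, with diamonds for 3_stim and WT_2 and a bar for the mean of each group. The ratio of Csf2rb2 to Csf2rb is higher in all IL-33 libraries than in all unstimulated libraries, and that of Il3ra to Csf2rb is lower. WT_2 stands above the other Control libraries in each panel.

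Set side by side over the 4 groups on a joint CPM scale, which is a description since the experiments differ in mice, culture time and stimulus, Csf2 was ordered IL-33 24 h (mean 1852), Blimp-1-deficient (493), Control (169) and unstimulated (30.0), with no overlap between neighbours. Csf2rb had another order, with Control at 416, Blimp-1-deficient at 132, IL-33 at 67.1 and unstimulated at 35.5, of which only the lowest pair overlapped. Csf2rb2 was also highest in Control at 103, and Blimp-1-deficient and IL-33 libraries at 36.6 and 30.8 overlapped, above unstimulated libraries at 5.69. Il3 was 2.83 in Blimp-1-deficient and 2.29 in IL-33 libraries, which overlapped. It was 0.521 in Control and 0 in unstimulated libraries, which overlapped through the 0 of WT_2. For Il3ra, the IL-33 libraries at 15.8 were below all others, and Control libraries (21.9 to 41.1) overlapped both the unstimulated (23.7 to 29.5) and, through WT_2 alone, the Blimp-1-deficient libraries (38.6 to 44.3), which did not overlap each other. For Csf1 and Csf2ra every neighbouring pair of groups overlapped. For Csf1 the overlap of Control with unstimulated libraries (109 to 163) came through WT_2 alone, with the other Controls at 58.8 to 64.3.

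Per length, Il3ra had the highest mean of the receptor genes in unstimulated libraries, at 34.9 ± 2.79 TPM (SD, n = 4), but its range of 32.6 to 38.2 TPM lay inside the 20.5 to 40.9 TPM of Csf2rb, which had a mean of 29.2 ± 8.75. Lower were Csf2ra at 10.7 ± 2.73 and Csf2rb2 at 4.81 ± 1.40. In IL-33 libraries Csf2rb had the highest mean, at 42.5 ± 14.5 TPM, with Csf2rb2 at 20.0 ± 4.12 and Il3ra at 16.0 ± 3.86, which overlapped. With 76.8% of the counts of WT_2 in 7 genes, the TPM of its other genes were low, and in Control libraries 1 and 3 Csf2rb stood at 286 TPM, Csf2rb2 at 65.8, Il3ra at 27.2 and Csf2ra at 9.28. Blimp-1-deficient libraries held Csf2rb at 98.1 ± 28.5 TPM, Il3ra at 49.2 ± 6.09, Csf2rb2 at 28.0 ± 6.17 and Csf2ra at 12.6 ± 0.922 (SD, n = 3). The lengths in the deposited files for Csf2ra, Csf2rb and Csf2rb2 are shorter than those of GENCODE vM21. For the same counts a longer length gives a lower TPM, but reads were not recounted on the longer models.

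Partners and relatives of these genes were read from lists. Il5ra, the IL-5 alpha chain that shares Csf2rb, was at 0 in unstimulated and Control libraries and at means of 0.0339 and 0.0465 CPM in IL-33 and Blimp-1-deficient libraries. Csf3r, the G-CSF receptor, was at 0 in all 8 libraries of the stimulation experiment, and Csf3, which encodes G-CSF, stayed at means of up to 0.227 CPM in the 4 groups. These 3 genes were singled out after their values were seen. Of 10 other growth factor genes, 5 could be tested after IL-33: Il5, the eosinophil growth factor, rose (log2 fold change 4.98, adjusted p = 1.12e-05), Flt3l fell (-1.14, adjusted p = 0.0106), and 3 did not pass. Without 3_stim, 3 of the 5 fell, Kitl (-1.14, adjusted p = 0.00023) and Il7 (-1.07, adjusted p = 0.0108) in addition to Flt3l. Both were named after their values were seen. Of 9 other receptor genes, 4 could be tested, and Kit (-0.97), Crlf2 (-0.80) and Il7r (-0.47) fell, as these 3 did without 3_stim. For Blimp-1 deficiency 0 of 5 tested receptor genes passed with all 6 libraries by edgeR, where 2 had an unadjusted p below 0.05, and 1 was called by DESeq2 and 1 by voom. Without WT_2, Il7r rose (0.50, adjusted p = 0.00952) and the other 4 did not pass. For Blimp-1 deficiency with all 6 libraries 0 of 8 tested growth factor genes passed by edgeR, where 2 had an unadjusted p below 0.05, and 1 was called by DESeq2 and 1 by voom. Without WT_2, Kitl, which encodes the ligand of Kit, was the only one of the 8 called by edgeR, and it fell by 2.33 on the log2 scale (SE 0.24, adjusted p = 0.00229), against -2.10 (adjusted p = 0.0612) with all 6.

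Of 16 genes of beta common receptor signalling, 1 rose and 3 fell after IL-33, with a median log2 fold change of -0.09 beside 0.06 over all genes. Jak2, the kinase bound to the beta chain, rose (1.54, SE 0.10), and the PI3-kinase genes Pik3cd (-0.99) and Pik3r1 (-0.60) and the adaptor gene Gab2 (-0.77) fell. Without 3_stim the counts were 5 higher and 5 lower. For Blimp-1 deficiency 0 of 16 passed with all libraries by edgeR, where 5 had an unadjusted p below 0.05, 2 were called by DESeq2 and 4 by voom. Without WT_2, 3 rose, Jak2 (0.53) and Ptpn6 (0.44) among them, and 2 fell, Sos1 (-0.82) and Ywhaz (-0.38). Of 14 known STAT5 target genes, 7 rose and 3 fell after IL-33 (median 0.36; 8 and 4 without 3_stim), led by Pim2 (2.54), Myc (1.65), Osm (1.25) and Bcl2l1 (1.22). Pim2 (1.45, SE 0.17, adjusted p = 0.0294) and Bcl2 (1.16, SE 0.10, adjusted p = 0.0122), both survival genes, rose in Blimp-1-deficient libraries with all 6 libraries. Without WT_2, 3 rose and 4 fell, Socs3 (-0.84) and Il2ra (-0.69) among the latter.

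Of 25 regulators of Csf2 and Il3 transcription, 9 rose and 7 fell after IL-33 (median 0.09), and 11 rose and 10 fell without 3_stim. Irf4 (2.42), the AP-1 gene Junb (1.95) and the NF-kB genes Rel (1.88) and Nfkb2 (1.88) had the largest changes among the called genes. For Blimp-1 deficiency with all 6 libraries 0 of 25 passed by edgeR, where 10 had an unadjusted p below 0.05, 5 were called by DESeq2 and 8 by voom. Without WT_2, 6 rose, with Nfkb2 (0.63), Rel (0.57), Bhlhe40 (0.52) and Relb (0.49) having the largest changes, and 2 fell. Of 9 genes of mRNA stability, which sets the life of cytokine transcripts, Zc3h12a (2.47) and Elavl1 (0.50) rose after IL-33. In the same comparison 3 fell, Zfp36l1 (-1.16) and Zfp36l2 (-0.93) among them, while 2 rose and 5 fell without 3_stim. For Blimp-1 deficiency 0 of these 9 passed with all 6 libraries by edgeR, where 3 had an unadjusted p below 0.05, and 3 were called by DESeq2 and 3 by voom. Without WT_2, Zfp36 fell by 1.11 on the log2 scale in Blimp-1-deficient libraries, and Zfp36l1 (0.75) and Zc3h12a (0.54) rose. The lists were chosen with earlier results of these data known, and their counts are descriptions.

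Markers of blood cells that use these receptors were summed in each library. Macrophage and monocyte markers summed to 89.0 to 207 CPM in unstimulated, 41.8 to 140 CPM in IL-33, 31.4 to 123 CPM in Control and 36.0 to 114 CPM in Blimp-1-deficient libraries. These ranges overlapped within each experiment, and Lyz2 had the highest mean of the list in every group. With all 6 libraries 0 of 15 tested were called for Blimp-1 deficiency by edgeR, where 1 had an unadjusted p below 0.05, 1 was called by DESeq2 and 2 by voom, and the log2 fold changes of the complement genes C1qa, C1qb and C1qc were -1.01, -1.68 and -0.57. WT_2 held 9.74 CPM of C1qa and 8.04 CPM of C1qb, the highest of the 6. Without WT_2, 4 of 15 tested were higher with Blimp-1 deficiency, namely Adgre1 (log2 fold change 1.87), C1qa (3.80), C1qb (4.34) and C1qc (3.74), so that the complement genes turned direction, in the comparison where Csf1, Csf2, Il3 and Il3ra were also higher. Without 3_stim, 3 of 9 tested were lower after IL-33. Granulocyte markers summed to at most 11.2 CPM in any library. For Blimp-1 deficiency with all 6 libraries 0 of 4 tested were called by edgeR, where 3 had an unadjusted p below 0.05. DESeq2 called 2 and voom 3, and without WT_2, 1 was higher and 2 lower. Mast cell and basophil markers summed to 13.0 to 27.4 CPM, with Ms4a2 and Prss34 at 0 in 3 groups. For Blimp-1 deficiency with all 6 libraries 0 of 3 tested were called by edgeR, where 0 had an unadjusted p below 0.05. DESeq2 and voom called 0 too. Without WT_2, 1 of the 3 was higher, Gata2 (0.90, adjusted p = 0.0398), against -0.11 with all 6. Of the 3 that could be tested after IL-33, 1 was lower, and 1 was higher and 2 lower without 3_stim. The one lower with all libraries, Cpa3, a mast cell protease gene, stood at 6.68 to 12.8 CPM in unstimulated libraries and at 0 to 0.0708 CPM after IL-33, where Il3ra fell too (adjusted p = 0.000113 for Cpa3). Without 3_stim Gata2 was lower (-1.17) and Mitf higher (0.32). The protease genes Tpsb2 and Cma1 were at 0 in unstimulated libraries. After IL-33, Tpsb2 stood at 0.985 CPM in 3_stim and 0.389 CPM in library 4, and Cma1 at 0.177 CPM in library 4. Epcam, Krt8, Pecam1, the mast cell and basophil genes and the macrophage genes given here were singled out after their values were seen. The part of these cells in the ligand and receptor values was not tested.

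Likeness of pattern was measured as Pearson's r of log2 CPM over the 14 libraries among 10625 genes. The libraries share groups and depth, so the values are descriptions with no p. Csf2 and Il3 followed each other at 0.93, the beta chain genes at 0.91, and Csf1 and Il3ra at 0.78. Nearest to Csf1 were Mgp (0.90), Adam12 (0.90) and Adamts2 (0.87), and nearest to Csf2 were Slco3a1 (0.99), Gpr171 (0.99) and Satb1 (0.99). For Il3 they were Jak2 (0.98), Dscaml1 (0.98) and Gprasp2 (0.98). The nearest to Csf2rb were 2810474O19Rik (0.96), Sbno2 (0.96) and Sos1 (0.96), and to Csf2rb2 Adarb1 (0.98), Tnfrsf8 (0.97) and Slc35d1 (0.97). Il3ra was followed by Lima1 (0.97), Wisp1 (0.94) and Ttc17 (0.93), and Csf2ra less closely by Cep250 (0.89), Dnm2 (0.89) and Slc35b3 (0.88). Without 3_stim and WT_2, 1 of the 3 nearest genes was kept for each member except Csf2ra, where 0 were.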

How the data were processed

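RNA of sorted ILC2s was amplified with SMART-seq v4, which does not mark strand, made into libraries with Nextera XT and sequenced in paired reads of 75 bases. The study's methods give trimming with cutadapt, alignment to GRCm38 with HISAT2 and counting with Subread, while the submitters' processing notes list mm10, Bowtie2, Subread and DESeq2. The authors deposited raw counts per gene without normalization and TPM, separately for the 2 experiments. The deposited TPM equal counts divided by the deposited gene length, scaled to 1000000 per library. Coordinates and overlaps came from GENCODE vM21 (GRCm38), and 95.2% of the 49721 genes matched by name have the same exon length as in the files. The models of Csf2ra, Csf2rb and Csf2rb2 differ (1849, 4764 and 4612 bases in the files against 2871, 7277 and 4740), so their coordinates may not be those counted. Promoters came from RefSeq (GRCm38.p6): 6 of the 7 genes matched, and Csf2rb did not.

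Counts were fitted with edgeR 4.0.16 (TMM scaling, filterByExpr, quasi-likelihood F test), with adjusted p-values by Benjamini-Hochberg over all genes tested in an experiment and a threshold of 0.05. The SE is the log2 fold change divided by the square root of F. CPM are counts per 1000000 after TMM scaling within an experiment, over all its libraries. Changes without WT_2 or 3_stim came from a refit without that library, with TMM factors of its own. TPM ratios were compared on the log2 scale, with 0.1 TPM added to each value, by exact two-sided permutation tests over libraries. Alternatives were DESeq2 1.42.0, other scalings, no filter, limma 3.58.1 on log2 TPM, voom with sample weights, the replicate block, leaving out each library, and an unadjusted p below 0.01 with a log2 change beyond 1, since the study used a rule of this form, with fold cutoffs that differ between its text and a figure legend. On simulated counts for the 15466 genes of the stimulation comparison, edgeR recovered 70% of 4-fold and 43% of 2-fold changes, and 3.42% of its calls were false. For the 17335 genes of the Blimp-1 comparison these were 71%, 34% and 3.67%. In the simulation 100 genes changed by each fold, and no library was made to stand apart as 3_stim and WT_2 do. These rates may therefore not hold for the data.

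Libraries were grouped by their labels, and the series' design text gives individual mice in separate groups. In contrast, the study's figure legends that cover the stimulation and the Blimp-1 comparison give sorted samples of 2 pooled animals. No pair of replicates agreed within sampling noise: the chi-square per degree of freedom was 7.12 or more. Same-numbered libraries of the groups compared did not deviate together in every pair (correlations of -0.145 to 0.282 and of -0.134 to 0.122), so no pairing was used. The genes named by rule are the 7 members, Prdm1, Gm12223, up to 4 called genes per list with the largest change and a mean of at least 5 CPM, and the 3 genes most alike in pattern to each member. Further genes were named outside this rule. They include Csf1r, Col1a1, Lyz2, Sftpc, Scgb1a1, Trbc2 and Cd3e, which describe a library or a marker list. They also include the genes stated to be named or singled out after their values were seen. The members and lists were chosen with earlier results of these data known.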

Additional observations from a re-analysis of the deposited data

Results flagged for a closer look

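Of 22 groups of 4 libraries tested with Dixon's criterion for a library far from the rest, 2 were marked, and chance marks about 1 in 20 groups. The log2 TPM ratio of Csf2rb2 to Csf2rb among IL-33 libraries was -0.544 in 3_stim, above the -1.16, -1.17 and -1.24 of the others. The 3_stim library was the shallowest of its experiment. The log2 TPM ratio of Il3ra to Csf2ra among IL-33 libraries was 0.846 in library 1, below the 1.13, 1.14 and 1.16 of the others.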

How the results depend on the processing

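After IL-33, the calls of Csf1, Csf2, Il3, Csf2rb2 and Il3ra held in all 16 alternatives. Csf2rb, above the threshold with all libraries, was called in 6 of 16, with adjusted p values of 6.43e-05 to 0.252. Under an unadjusted p below 0.01 and a log2 change beyond 1, 0 members were lower after IL-33, and 0 without 3_stim. For Blimp-1 deficiency with all 6 libraries, members called higher were 0 (of 78 genes in all), but 2 with DESeq2 (of 546), 1 with library size alone (of 98), 4 with voom (of 1295) and 2 under that unadjusted rule; leaving out 1 library gave 0 to 4, the 4 without WT_2. Members called lower were 2, but 0 with library size alone, 0 with limma on log2(TPM + 1), 0 on log2(TPM + 0.1), and 0 to 2 leaving out 1 library, where the 2 came without WT_2. On log2(TPM + 1) and log2(TPM + 0.1) the changes reversed to 0.051 and 0.087 for Csf2rb and to 0.17 and 0.27 for Csf2rb2; there WT_2 enters with the TPM that 7 genes depress, and the median of all genes was 1.28 and 1.69, against -0.018 in edgeR. Without WT_2, the 6 called members kept their calls in 12 alternatives and Csf2ra was called in none; in 2 of the 12, Control was a single library, assumed to vary like the Blimp-1-deficient ones. With the replicate number as a block, 0 members were lower for Blimp-1 deficiency (adjusted p = 0.121 for both beta chain genes), and Csf2rb was called after IL-33 (adjusted p = 0.0139); by the design text the groups hold separate mice. Depth limits Il3 in WT_2, where 3 counts are 0.731 CPM.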
